A study of Mus musculus with 6 samples.

Results

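The clustered protocadherins are a family of cadherin-type adhesion genes that sit side by side on mouse chromosome 18 in an alpha, a beta and a gamma cluster. Members were chosen by gene symbol (Pcdha, Pcdhb and Pcdhga, Pcdhgb or Pcdhgc isoforms), which gave 58 of the 24532 genes of the table: 14 alpha, 22 beta and 22 gamma members. The family was picked with earlier results of these libraries known, so the members' differences are given as a description, and every adjusted p comes from a fit over all genes. Bulk RNA-seq had been made from the kidney and the ureter of mice at postnatal day 1 (PN1). Ahnak KO mice, in which exon 5 of Ahnak was disrupted, were compared with wild-type (WT) mice. Kidney was sequenced in 2 libraries of each genotype and ureter in 1 of each. Per the study's methods each RNA came from 2 to 4 kidneys or ureters, and nothing says whether the 2 libraries of a group came from separate litters, so p-values measure the spread between these libraries only. The disruption was carried in the whole animal, and no strain was given in the sources used here.

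Each alpha and gamma protein is built from 1 large first exon, chosen by promoter, that codes for the whole extracellular part, joined to a short set of constant exons that all isoforms of the cluster share. Beta genes have a single exon and no constant part. In neurons each cell switches on a small random set of these promoters, and the proteins bind the same isoform on a neighbouring cell, which gives neurons an identity for self-avoidance. CTCF and cohesin loop the promoters to distant enhancers, and DNA methylation by Dnmt3b and silencing by Smchd1 keep unchosen promoters off.

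On GRCm38 (mm10), the alpha members spanned chr18:36930285-37188897, the beta members chr18:37264998-37521419 and the gamma members chr18:37661775-37841873. In GENCODE models of that build, the alpha transcripts had 4 exons with a first exon of 2346 to 3028 bases followed by 2860 bases of shared exons. The gamma transcripts also had 4 exons, with a first exon of 2421 to 2961 bases and a median of 2119 shared bases. A median of 44.6% of the 100-base windows of an alpha transcript and 55.9% of those of a gamma transcript occurred in no other gene of the locus, against 99.8% for beta. Reads from the shared exons therefore cannot name an isoform, and the deposited isoform counts include the quantifier's division of them. The cluster sums are less exposed to that division, though how the quantifier treated such reads is not known for certain. Pcdhb21 and Pcdhb22 have overlapping models, and RefSeq lists Pcdhgb8 as a transcribed pseudogene.

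Depth was 36410246 to 66095616 estimated counts per library, lowest in the Ahnak KO ureter, where 8.06% of counts fell on the ribosomal RNA precursor Rn45s against 0.496 to 0.632% elsewhere. Counts were scaled to TMM-adjusted library size as CPM, on which scale a limit of 3 counts was 0.0421 to 0.0583 in WT and Ahnak KO kidney and WT ureter and 0.101 in the Ahnak KO ureter. Ahnak itself, the targeted gene, was still counted in the KO libraries, at 139 and 130 CPM in Ahnak KO kidney against 183 and 189 CPM in WT kidney (log2 fold change −0.47, SE 0.096, edgeR adjusted p = 0.9999) and at 635 against 727 CPM in ureter, so total gene counts separated the kidney genotypes without overlap but did not mark a loss. Ahnak KO kidney 1 stood apart: Xist was at 2916 CPM there and 0.354 to 0.699 CPM in the other 5 libraries. The 4 Y-linked genes examined were at 0 there and at 26.5 to 114 CPM in the others. By these genes it read as female and the other 5 as male, so sex and genotype are partly mixed in kidney. The summed CPM of 4 red blood cell markers in Ahnak KO kidney 1 was 347, against 18.3 to 31.7 in the other kidney libraries. All 6 urothelial and all 5 smooth muscle markers were higher in ureter and all 10 kidney markers were lower there, as the tissue labels say.

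Of the 58 members, 42 had counts in all 6 libraries and 3 (Pcdha7, Pcdha8 and Pcdha11) had none in any. The clusters differed widely in level. Mean FPKM (fragments scaled by transcript length and library size, so that genes can be compared) had a median of 0.0114 over alpha, 0.522 over beta and 1.23 over gamma members. All 22 gamma members were detected in every library.

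**Figure D1:**
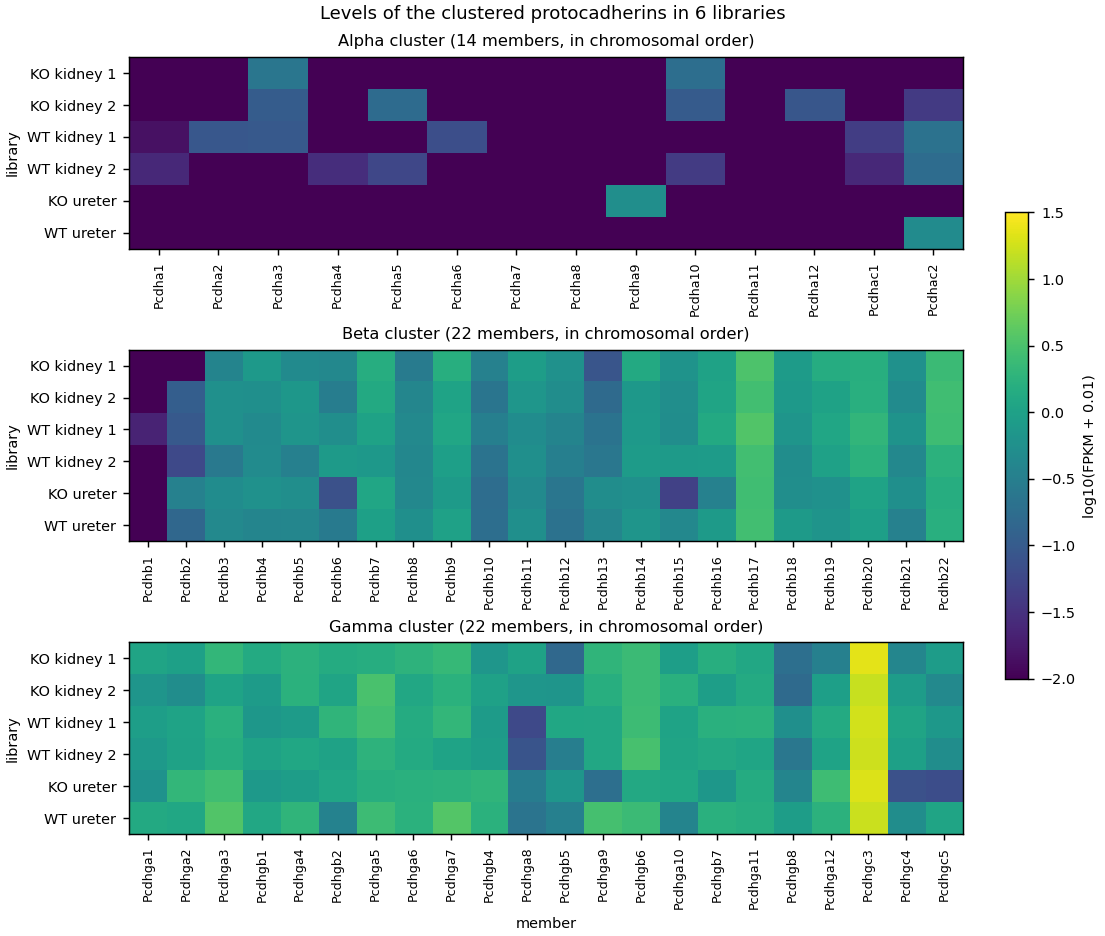
Heat map of log10(FPKM + 0.01) for the 58 members (columns, in chromosomal order within each cluster) in the 6 libraries (rows); the darkest colour is a value of 0. Pcdhgc3 is the bright column in all 6 libraries, and the beta columns keep their shade from row to row. The alpha panel is mostly dark with lit cells that vary between rows, though Pcdhac2 is lit in each WT row.

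A single isoform, Pcdhgc3, led the family. It belongs to the C-type isoforms (Pcdhac1, Pcdhac2, Pcdhgc3, Pcdhgc4 and Pcdhgc5), which sit at the end of their clusters and are switched on in a more uniform way than the others. Pcdhgc3 (gene ID 93706, chr18:37806410-37841873) was at 23.0 and 16.2 FPKM in Ahnak KO kidney, 18.03 and 17.4 in WT kidney, 20.4 in Ahnak KO ureter and 16.8 in WT ureter. Its counts were 6287, 4336, 5706, 4734, 3593 and 4445 in the same order. It took 47.3, 40.1, 40.0 and 43.5% of all gamma counts in the kidney libraries (mean 42.7% ± 3.45, SD, n = 4), 46.2% in the Ahnak KO ureter (95% Wilson interval 45.1 to 47.3%) and 34.1% in the WT ureter (33.3 to 34.9%). Those intervals cover counting error only. The genotypes overlapped in kidney, with a log2 fold change of 0.17 (SE 0.18, adjusted p = 0.9999), and the sign turned to −0.11 without Ahnak KO kidney 1. Between tissues the log2 fold change (ureter over kidney) was 0.29 (SE 0.16, adjusted p = 0.182).

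The other C-type isoforms were low. Pcdhgc4, which many neurons need for survival, was at 0.389 and 0.839 FPKM in Ahnak KO kidney, 1.09 and 0.979 in WT kidney, 0.0635 in Ahnak KO ureter and 0.507 in WT ureter, so both KO kidney libraries lay below both WT ones. Pcdhgc5 was at 0.839 and 0.436 FPKM in Ahnak KO kidney, 0.714 and 0.514 in WT kidney, 0.0564 in Ahnak KO ureter and 1.11 in WT ureter. Kidney genotypes overlapped for Pcdhgc5, and its lowest and highest libraries were the 2 ureters. Pcdhac2 had 0 and 10 counts in Ahnak KO kidney, 73 and 52 in WT kidney, 0 in Ahnak KO ureter and 147 in WT ureter. Pcdhac1 was counted in WT kidney alone, at 13 and 5 counts.

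The 21 other gamma isoforms had mean FPKM from 0.388 to 2.36, with a median of 1.17. Values in single libraries ranged more widely, from 0.0484 (Pcdhga8 in WT kidney 1) to 3.65 (Pcdhga7 in WT ureter). The highest were Pcdhgb6 (2.36 on average, 1.29 to 3.05 over the libraries), Pcdhga5 (2.197, 1.51 to 3.09), Pcdhga3 (2.08, 1.05 to 3.54) and Pcdhga7 (2.08, 1.08 to 3.65). The lowest were Pcdhga8 (0.388), Pcdhgb8 (0.397) and Pcdhgb5 (0.553). Which isoform came second to Pcdhgc3 differed between libraries: it was Pcdhgb6 in Ahnak KO kidney 1 (2.43 FPKM), Pcdhga5 in Ahnak KO kidney 2 (3.09) and WT kidney 1 (2.73), Pcdhgb6 in WT kidney 2 (3.05), Pcdhga3 in Ahnak KO ureter (2.65) and Pcdhga7 in WT ureter (3.65). Pcdhgb5 shows how far libraries of 1 group could part, at 38 and 169 counts in Ahnak KO kidney and 373 and 80 in WT kidney. Between replicates, the median absolute log2 ratio of CPM over the 22 gamma members was 0.61 in Ahnak KO kidney and 0.31 in WT kidney, against 0.20 and 0.18 over all 16481 genes tested. Over the 21 beta members tested it was 0.32 and 0.31, and over the 4 alpha members tested 0.65 and 0.48, so a wider spread was not particular to gamma. Members and all genes were not matched for level.

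Beta members kept their order better than gamma members. Pcdhb17 was the highest beta gene in all 6 libraries, at 3.29 and 2.72 FPKM in Ahnak KO kidney, 3.50 and 2.77 in WT kidney, 2.68 in Ahnak KO ureter and 2.74 in WT ureter. Pcdhb22 (mean 2.097 FPKM), Pcdhb20 (1.48), Pcdhb7 (1.12) and Pcdhb9 (1.08) followed. The lowest were Pcdhb1, with 2 counts in 1 library (WT kidney 1) and 0 in the others, Pcdhb2 (mean 0.119 FPKM, 0 to 36 counts) and Pcdhb10 (0.236 FPKM). Along the cluster, the first 11 genes had a median of 0.446 FPKM and the last 11 a median of 0.812, and the Spearman correlation of position with mean level was 0.58 over 22 genes, or 0.45 without Pcdhb1 and Pcdhb2. For the gamma cluster it was −0.10.

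The stability of the pattern was described by the Pearson correlation of log2(FPKM + 0.1) across members for each of the 15 pairs of libraries. A pair may share tissue, genotype, both (kidney replicates) or neither. Over the 22 beta members it was 0.63 to 0.97 with a median of 0.91. Over the 21 gamma members other than Pcdhgc3 it was 0.27 to 0.83 with a median of 0.54. Over the 14 alpha members it was −0.19 to 0.89 with a median of 0.0063, and the highest was between WT kidney 2 and WT ureter. Each beta gene has its own exon, while gamma and alpha values share exons as described above, so these correlations compare unlike measurements.

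**Figure D2:**
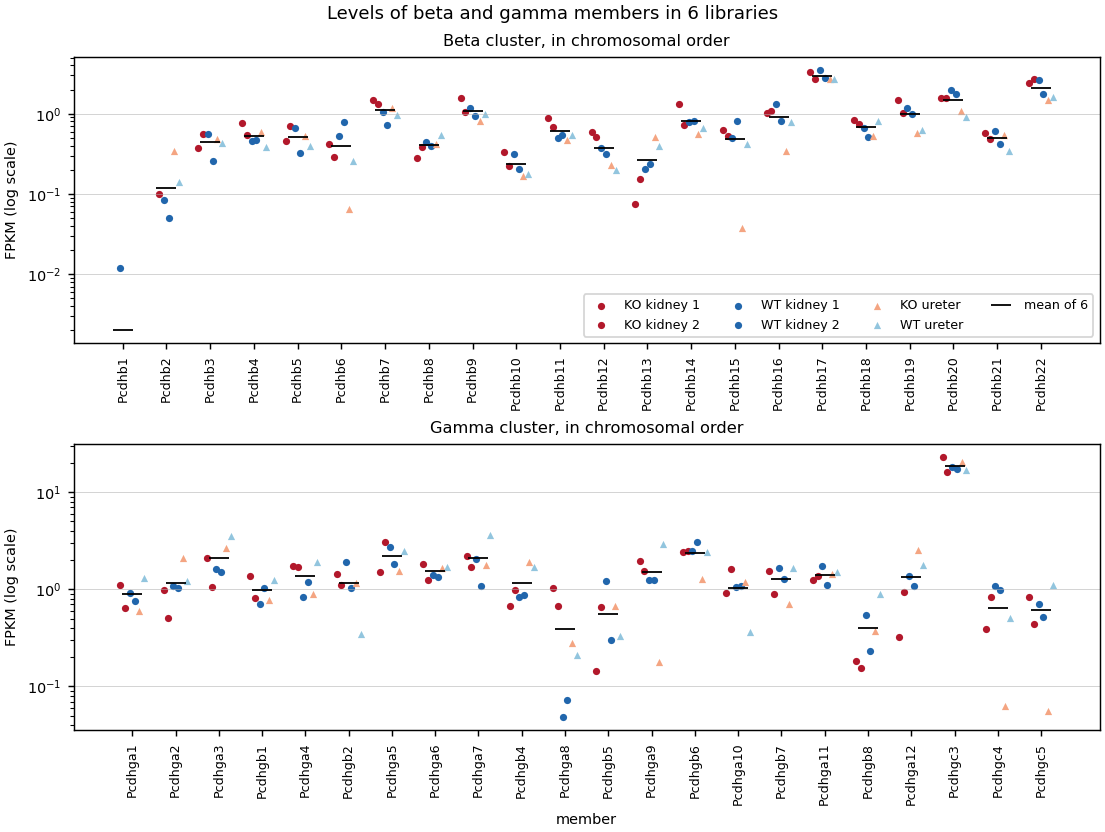
FPKM on a log scale for each beta and gamma member in chromosomal order; circles are kidney libraries, triangles ureter libraries, red or orange Ahnak KO, blue WT, and the black dash is the mean of the 6 libraries (values of 0 are not drawn). Pcdhb17 tops the beta cluster and Pcdhgc3 the gamma cluster, and the points of Pcdhb15, Pcdhga8, Pcdhga9, Pcdhgc4 and Pcdhgc5 are spread widely, with Pcdhga8 from 0.0484 to 1.03 FPKM and Pcdhb15 from 0.038 to 0.804.

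The alpha cluster was close to silent, and the members that carried its few reads varied between libraries. Some recurred: Pcdhac2 had the most alpha counts in WT kidney 1, WT kidney 2 and WT ureter, and 0 or 10 counts in the Ahnak KO libraries. In Ahnak KO kidney 1 only Pcdha3 (70 counts) and Pcdha10 (55) were above 0. Ahnak KO kidney 2 had Pcdha5 (47 counts), Pcdha3 (28), Pcdha10 (28), Pcdha12 (24) and Pcdhac2 (10). In WT kidney 1 the counts lay on Pcdhac2 (73), Pcdha3 (31), Pcdha2 (29), Pcdha6 (22), Pcdhac1 (13) and Pcdha1 (2). WT kidney 2 had Pcdhac2 (52), Pcdha5 (14), Pcdha10 (10), Pcdha4 (6), Pcdhac1 (5) and Pcdha1 (5).

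Each ureter library listed 1 alpha member above 0 and the other 13 at 0. This was Pcdha9 with 106 counts in Ahnak KO ureter and Pcdhac2 with 147 counts in WT ureter. With the other library set at the 3-count limit, Pcdha9 was 61.2-fold higher in the Ahnak KO ureter and Pcdhac2 28.3-fold lower. These folds are not firm lower bounds, since a 0 may come from the division of reads from the shared exons. The summed alpha counts were nevertheless of one size, at 125 and 137 in Ahnak KO kidney, 170 and 92 in WT kidney, 106 in Ahnak KO ureter and 147 in WT ureter. How far the division of reads from the shared exons sets which member is above 0 was not tested. The read-through loci Gm37013, Gm38666 and Gm38667, which cover alpha exons, were at 0 in all 6 libraries.

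The cluster sums were compared next, since they are less exposed to how reads were divided among isoforms. The gamma sum was 220 and 182 CPM in Ahnak KO kidney, 201 and 178 in WT kidney, 262 in Ahnak KO ureter and 253 in WT ureter. The beta sum was 69.2 and 61.2 CPM in Ahnak KO kidney, 64.8 and 52.3 in WT kidney, 59.7 in Ahnak KO ureter and 55.2 in WT ureter. The alpha sum stayed between 1.51 and 3.56 CPM. No test was run on these sums.

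In kidney the genotypes overlapped for all 3 sums. The log2 ratio of the means (KO over WT) was 0.17 for alpha, 0.15 for beta and 0.085 for gamma, each within the spread of log2 values inside a genotype (SD 0.34, 0.18 and 0.16). Leaving out a library moved the alpha ratio between −0.13 (without WT kidney 2) and 0.53 (without WT kidney 1) and turned the gamma ratio to −0.058 (without Ahnak KO kidney 1). In ureter the ratio of the 2 libraries was 0.32 for alpha, 0.11 for beta and 0.046 for gamma, and it turned to −0.083 for beta and −0.15 for gamma when libraries were scaled by size alone.

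**Figure D3:**
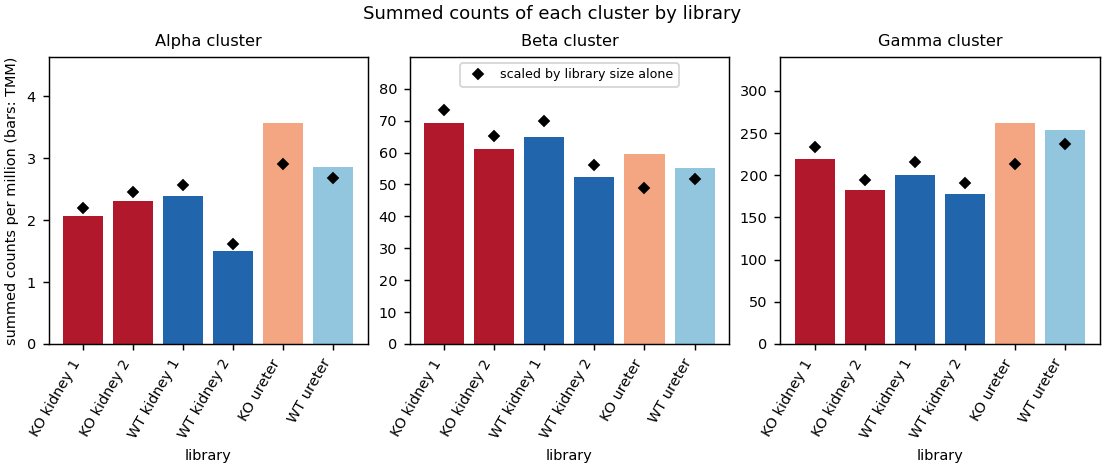
Summed CPM of the alpha, beta and gamma members in each of the 6 libraries (red or orange Ahnak KO, blue WT); bars use TMM scaling and black diamonds library size alone. Ahnak KO and WT kidney bars overlap in each cluster, and the 2 ureter gamma bars (262 and 253) lie above the 4 kidney bars (178 to 220), while the gamma diamonds of the ureters (214 and 237) lie within or just above the range of the kidneys (191 to 233).

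Ahnak KO and WT kidney were then compared isoform by isoform. Of the 58 members, 47 passed the expression filter (4 alpha, 21 beta and 22 gamma), and the quasi-likelihood test of edgeR called 0 of them at an adjusted p under 0.05, against 2 of all 16481 genes (0.0121%). Without adjustment 3 members (Pcdhga8, Pcdhga4 and Pcdhac2) and 227 genes in all had p under 0.05. The Wald test of DESeq2 called 1 member, Pcdhga8, and limma on log2(FPKM + 1) called 0. The median log2 fold change (KO over WT) was 0.083 over the members and −0.0041 over all genes tested.

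Pcdhga8 (gene ID 93716, chr18:37725706-37841873), a gamma A isoform, had the most separated genotypes. It had 285 and 184 counts in Ahnak KO kidney, 16 and 20 in WT kidney, 51 in Ahnak KO ureter and 57 in WT ureter. In CPM the KO kidneys were at 3.90 ± 1.14 and the WT kidneys at 0.276 ± 0.073 (SD, n = 2 each), a log2 fold change of 3.82 (SE 0.47, adjusted p = 0.195). The difference did not pass the threshold in the edgeR fit of all 4 libraries. It passed with DESeq2 (adjusted p = 6.13e-09), without Ahnak KO kidney 1 (adjusted p = 0.0401, log2 fold change 3.49) and without Ahnak KO kidney 2 (adjusted p = 0.00523, log2 fold change 4.08). Over the 13 alternatives the adjusted p ran from 6.13e-09 to 0.895. In ureter the 2 libraries lay between the kidney genotypes, at 1.71 and 1.11 CPM.

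In kidney, 5 of the 47 members (10.6%) had genotypes that did not overlap and a fold over 2, where 2.24% of all genes tested did. The share rested on a few low genes: besides Pcdhga8 they were Pcdha10 (55 and 28 against 0 and 10 counts), Pcdha3 (70 and 28 against 31 and 0), Pcdhac2 (0 and 10 against 73 and 52) and Pcdhgb8 (49 and 41 against 172 and 63). Pcdhac2 and Pcdhgb8 were lower and the others higher in KO, and the adjusted p was 0.9999 for each of the 4. Nothing is read from the higher share, since the family was picked with these results in view. Counting overlap alone, 10 of the 47 members were above WT in both KO libraries, 10 were below and 27 overlapped, where 12.8% of all genes tested were above and 13.5% below. Among the 21 beta members tested 5 were above and 4 below, read against the same shares, with Pcdhb7 (306 and 262 against 247 and 147 counts, log2 fold change 0.69, SE 0.31) and Pcdhb13 (16 and 32 against 52 and 51, −0.96, SE 0.69) as the widest of each direction. Pcdhga4 had 465 and 443 counts in Ahnak KO kidney and 254 and 314 in WT kidney (0.80, SE 0.27, adjusted p = 0.9999).

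**Figure D4:**
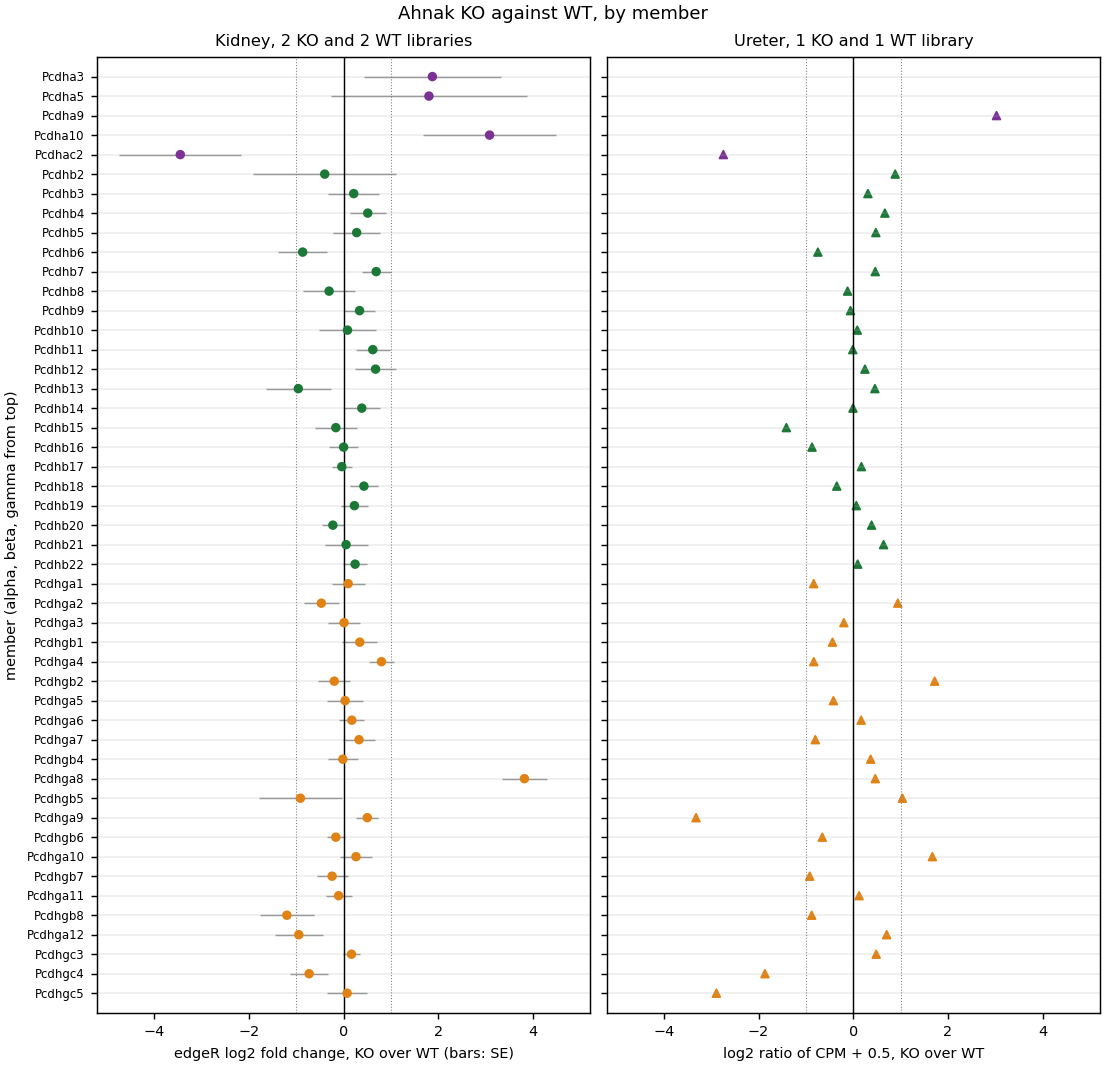
Ahnak KO over WT for each member that passed the filter, with alpha (purple), beta (green) and gamma (orange) members from top to bottom; the left panel shows the kidney log2 fold change with its standard error, the right panel the ureter log2 ratio of CPM + 0.5 from 1 library each, and dotted lines mark a fold of 2. Beta points lie between the dotted lines except for Pcdhb15 in ureter, Pcdhga8 stands out on the right side in kidney and Pcdhga9, Pcdhgc4 and Pcdhgc5 on the left side in ureter.

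The Ahnak KO and WT ureters are 1 library each, so no test was possible and intervals cover counting error only. Of 45 members that had 10 or more counts in at least 1 of the 2, 4 (8.89%) were over 2-fold higher and 5 (11.1%) over 2-fold lower in the Ahnak KO ureter by the ratio of CPM + 0.5. Of all 16117 genes so counted, 4.86% were higher and 6.26% lower. With libraries scaled by size alone the split became 3 higher and 10 lower, with CPM + 0.1 it was 5 higher and 6 lower, and with FPKM + 0.1, which changes both the unit and the added constant, 3 higher and 12 lower. The folds given for single members below are ratios of CPM with nothing added, and so are larger.

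Of the 5 members lower in the Ahnak KO ureter, 3 were gamma isoforms. Pcdhga9 (gene ID 93717) had 32 counts in Ahnak KO ureter and 786 in WT ureter, 14.2-fold fewer after scaling (log2 ratio of CPM −3.83, 95% exact interval −4.38 to −3.32). In kidney it was at 542 and 413 counts in KO and 398 and 346 in WT, with both KO libraries above both WT ones in CPM. Pcdhgc5 had 10 against 294 counts (17.0-fold fewer, −5.16 to −3.19) and Pcdhgc4 had 12 against 144 (6.93-fold fewer, −3.78 to −1.94). Pcdhb15, the only beta member among the 5, had 5 against 66 counts (7.63-fold fewer, −4.60 to −1.64), and Pcdhac2 was given above. With nothing added to the CPM, Pcdhb6 (6 against 35 counts, 3.37-fold fewer), Pcdhgb8 (66 against 232, 2.03-fold), Pcdhb16 (68 against 237, 2.01-fold) and Pcdhgb7 (121 against 420, 2.01-fold) were also past 2-fold, with counting intervals that reached inside it.

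The 4 members higher in the Ahnak KO ureter by the ratio of CPM + 0.5 were Pcdha9, Pcdhgb2, Pcdhga10 and Pcdhgb5. Pcdhgb2 had 205 counts in Ahnak KO ureter and 90 in WT ureter (3.94-fold more after scaling, log2 1.61 to 2.35). Pcdhga10 had 205 against 94 counts (3.77-fold more, 1.56 to 2.28) and Pcdhgb5 115 against 84 (2.37-fold more, 0.83 to 1.67). Pcdhga2 had 358 against 311 counts (1.99-fold more). Pcdhb2, at 36 against 22 counts, was 2.83-fold higher with nothing added to the CPM (log2 0.70 to 2.34) and under 2-fold with 0.5 added. The gamma isoforms thus lay on both sides. Their sum differed by a log2 ratio of 0.046, with Pcdhgc3 at 0.48 and the sum of the other gamma isoforms at −0.25. By library size alone the ratio of the whole gamma sum was −0.15. The kidney libraries of Pcdhgb2 and Pcdhga10 overlapped between genotypes.

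Other measures also differed between the 2 ureter libraries. The summed CPM of 7 striated muscle markers was 158 in Ahnak KO and 381 in WT ureter, and that of the 4 red blood cell markers 665 and 111. Of cell types in which the clusters are best known, 9 neuron markers summed to 34.7 CPM in Ahnak KO ureter and 37.8 in WT ureter and 7 Schwann cell markers to 192 and 158. The part of these differences, of the lower depth and of Rn45s in the isoform values was not tested. In bulk tissue fewer cells of a type and less RNA per cell cannot be told apart.

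**Figure D5:**
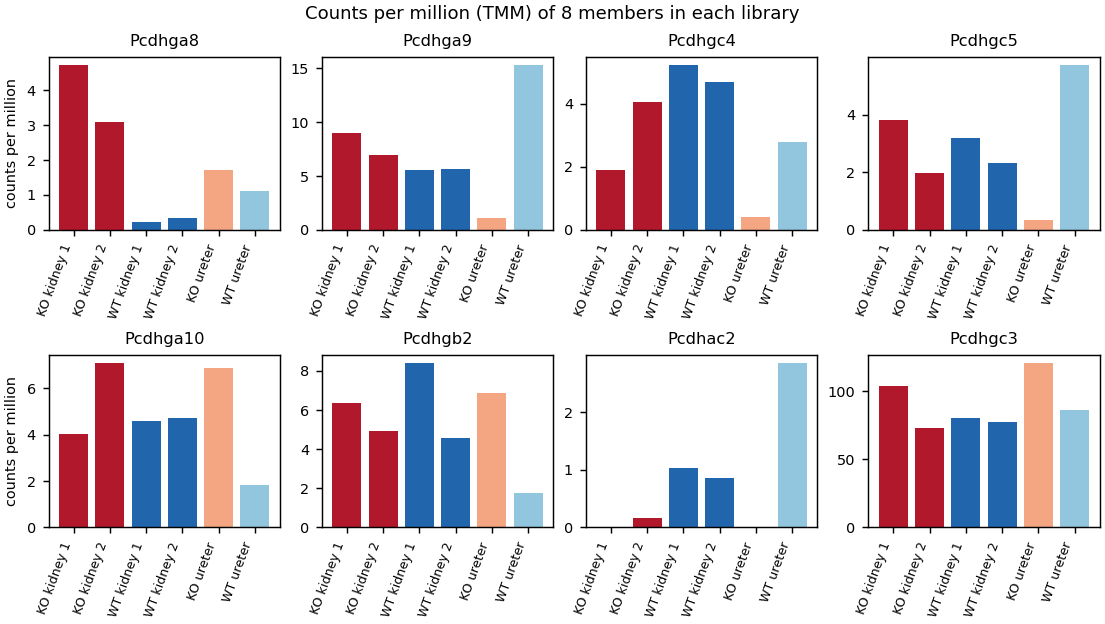
CPM of 8 members in the 6 libraries (red or orange Ahnak KO, blue WT; each panel has its own scale from 0). Pcdhga8 is at 4.71 and 3.10 in Ahnak KO kidney against 0.225 and 0.328 in WT kidney, Pcdhga9, Pcdhgc4 and Pcdhgc5 are lowest in the Ahnak KO ureter, and Pcdhgc3 is high in all libraries.

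Kidney and ureter were compared over all 6 libraries with genotype as a term. Of 47 members tested, 5 (10.6%) were higher in ureter and 0 lower at an adjusted p under 0.05 in edgeR, where 21.4% of all 16873 genes tested were higher and 23.7% lower. Both shares were below those of all genes. The median log2 fold change (ureter over kidney) was 0.082 over the members and −0.076 over all genes. Scaling by library size alone would lower each ureter value against kidney by 0.29 on the log2 scale, which leaves the 5 called members above 0. The split of calls was not stable between tools: DESeq2 called 9 members (6 higher, 3 lower) and limma on log2(FPKM + 1) called 9 (3 higher, 6 lower, of which 5 are beta genes).

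Of the 5 members that rose in ureter, 4 were gamma isoforms. Pcdhgb4 was at 2.93, 4.29, 3.53 and 3.79 CPM in the kidney libraries (KO, then WT) and at 10.9 in Ahnak KO ureter and 8.37 in WT ureter, and no kidney library reached a ureter one (log2 fold change 1.40, SE 0.26, adjusted p = 0.00584). It kept its call under all 14 alternatives. Pcdhga3 was at 9.46, 4.75, 7.28 and 6.84 CPM in kidney and at 15.8 and 18.2 in ureter (1.26, SE 0.28, adjusted p = 0.0124), and it was called under 12 of 14.

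The other 3 calls were less firm. Pcdhga12 was at 1.57, 4.56, 6.64 and 5.22 CPM in kidney and at 16.3 and 9.85 in ureter (log2 fold change 1.65, SE 0.53, adjusted p = 0.0437, called under 8 of 14 alternatives). Pcdhgb8 was at 0.810, 0.690, 2.42 and 1.03 CPM in kidney and at 2.22 and 4.51 in ureter, so that WT kidney 1 lay above the Ahnak KO ureter (1.47, SE 0.45, adjusted p = 0.0368, called under 5 of 14). Pcdhb13, the only beta member called, was at 0.265, 0.539, 0.730 and 0.837 CPM in kidney and at 2.42 and 1.63 in ureter (1.87, SE 0.61, adjusted p = 0.0471, called under 8 of 14). Without Ahnak KO kidney 2 the fit called 2 members, Pcdhga3 and Pcdhgb4, without Ahnak KO kidney 1, WT kidney 1 or WT kidney 2 it called 3, and without the WT ureter it called 9. Without the Ahnak KO ureter it called 7 (6 higher, 1 lower), which left out Pcdhb13, Pcdhga12 and Pcdhgb8. The log2 fold change of Pcdhga12 was then 0.73 (adjusted p = 0.382) and that of Pcdhb13 1.06 (adjusted p = 0.34).

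As sums, alpha and gamma were higher in both ureter libraries than in any kidney library. The log2 ratio was 0.63 for alpha, from few counts, and 0.34 when scaled by library size alone and 0.32 from summed FPKM. For gamma it was 0.40, and 0.11 and 0.10 under these. The beta ratio was −0.11, with overlapping tissues, and −0.40 under both. Without Pcdhgc3 the gamma sum was 141 CPM in Ahnak KO ureter and 167 in WT ureter against 101 to 120 in kidney. The gamma A isoforms took 100 and 116 CPM in ureter and 59.3 to 75.7 in kidney. The gamma B isoforms took 40.0 and 42.9 in ureter and 31.3 to 40.8 in kidney. By library size alone, gamma without Pcdhgc3 was 115 and 156 CPM in ureter (Ahnak KO, then WT) against 108 to 130 in kidney. Gamma A was then at 81.7 and 108 in ureter against 63.6 to 80.4, and gamma B at 32.7 and 40.2 against 33.3 to 44.0.

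Markers of the nervous system moved with the tissues. The 9 neuron markers summed to 15.8 to 22.9 CPM in kidney and to 34.7 to 37.8 CPM in ureter. Of these 4 were called higher in ureter and 1 lower, where 21.4% of all genes tested were higher and 23.7% lower. Th, Prph and Snap25 were among the markers at 0 in at least 1 library. The 7 Schwann cell markers summed to 43.8 to 47.4 CPM in kidney and to 158 to 192 CPM in ureter, with 6 called higher. The 6 stromal markers summed to 1202 to 1439 CPM in kidney and to 6921 to 8442 CPM in ureter. Of the stromal markers 3 were called higher and 1, Pdgfrb, lower (log2 fold change −0.83, SE 0.13). Their part in the member values was not tested.

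Genes that act on the clusters or beside them were listed as well. None of the lists below had a gene past the edgeR threshold between kidney genotypes, and 1 gene in all of them, among the non-clustered protocadherins, had an unadjusted p under 0.05. Of 26 chromatin regulators of the clusters, 16 were lower in ureter than in kidney and 0 higher, with a median log2 fold change of −0.38. Over all genes tested, to be read beside each list, 23.7% were lower and 21.4% higher with a median of −0.076. The 5 of smallest p were Dnmt3b, the methyltransferase that marks unchosen promoters (−1.41, SE 0.16), the cohesin subunits Rad21 (−0.63, SE 0.093) and Smc1a (−0.63, SE 0.10), Uhrf1, which maintains methylation (−1.07, SE 0.18), and Tet1, which removes it (−0.76, SE 0.13). Adjusted p-values of these ran from 0.00076 to 0.00464. Dnmt3b stood at 4.93 to 5.68 FPKM in kidney and at 1.52 and 1.65 in ureter.

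Of 23 intracellular and membrane partners, 10 were higher and 6 lower in ureter, where 21.4% of all genes were higher and 23.7% lower. The kinase Ptk2b, which the shared cytoplasmic tail of alpha and gamma proteins inhibits, was at 2.06 to 2.49 FPKM in kidney and 13.6 and 9.52 in ureter (log2 fold change 2.63, SE 0.21). The receptor Ret, which can bind these proteins, fell by 4.37 on the log2 scale (SE 0.22). Cyfip2, of the actin-regulating WAVE complex, was at 7.96 to 8.83 FPKM in kidney and at 1.498 and 1.56 in ureter. The secreted guidance protein Reln was at 5.88 to 8.13 FPKM in kidney and at 1.25 and 1.61 in ureter, with an adjusted p of 0.000233.

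Around the clusters, 4 of 16 flanking and intervening genes tested were higher and 4 lower in ureter, near the shares of all genes (21.4 and 23.7%). Taf7, a general transcription factor gene that lies between the beta and the gamma clusters, had 1055 to 2466 counts in every library, and Slc25a2 beside it had 8 to 20 counts in kidney and 0 in ureter. Diaph1 (1.12, SE 0.086), Cd14 (2.71, SE 0.23) and Ndufa2 (0.39, SE 0.095) were higher in ureter and Arap3 (−0.82, SE 0.11) lower, and Dnd1 had 0 counts in both ureter libraries. Of 23 non-clustered protocadherins and related cadherins tested, 6 were higher and 9 lower. Fat2 was at 8.53 and 5.87 FPKM in ureter and at most 0.0965 in kidney, Pcdh1 rose by 2.84 on the log2 scale (SE 0.19) and Celsr2 fell by 2.05 (SE 0.13). The brush border genes Cdhr2 and Cdhr5 were at 2.79 to 3.61 and 8.45 to 9.75 FPKM in kidney and at 0 in both ureter libraries. Of 14 classical cadherins and catenins tested, 4 were higher and 5 lower.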

How the data were processed

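Total RNA from kidney and ureter of PN1 mice had been sequenced by the authors as stranded mRNA libraries on an Illumina HiSeq2500. The authors deposited 1 gene table with estimated counts (whole numbers), FPKM and TPM per library. The study's methods name Cutadapt, STAR, GRCm39 and Cufflinks, whereas the submitters' processing notes list Trimmomatic 0.38, HISAT2 2.1.0, StringTie 1.3.4b and mm10, the build in the table's own name. These differ, so how reads from shared exons were divided is not known for certain. The ureter columns were matched by their headers to the samples whose source is given as ureter, although these carry the titles KO-kidney-3 and WT-kidney-3. Their headers share a trailing number with Ahnak KO kidney 2 and WT kidney 2. Whether that marks shared animals was not given, and the tissue fit did not pair them.

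The estimated counts were tested with edgeR 4.0.16 (R 4.3.3), with TMM scaling, filterByExpr, the quasi-likelihood test and Benjamini-Hochberg adjustment over all genes tested. Kidney genotype used the 4 kidney libraries, and tissue used 6 libraries with genotype as a term. The kidney fit had 2 and the tissue fit 3 residual degrees of freedom, which limits the precision. Ureter genotypes were described by the ratio of CPM + 0.5 for genes that had 10 or more counts in at least 1 of the 2. Cluster sums were untested. FPKM served for levels, and TPM was not used. The scripts were tested on simulated data.

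The members and gene lists were chosen with earlier results of these data known. Values were printed for the C-type isoforms; the 5 highest and 3 lowest members of each cluster; members called, or past 2-fold with genotypes apart in kidney; the 5 largest differences each way in ureter; members at 0 in 1 library with 20 or more counts in another; and the 5 genes of smallest tissue p in each list of regulators, partners, neighbours and non-clustered protocadherins, of which 1 partner is not reported here. Pcdha1, Pcdha4, Pcdhga4, the kidney values of Pcdhb7 and Pcdhb13, the ureter values of Pcdhb2, Pcdhb6, Pcdhb16, Pcdhgb7 and Pcdhgb8, Taf7 and Slc25a2 were added after their values were seen. Alternatives were DESeq2 1.42.0, limma 3.58.1 on FPKM, other filters and scalings, a replicate block, a paired tissue fit, and leaving out libraries. Coordinates come from RefSeq on GRCm38 and exon models from GENCODE M21. No sequence is reported here.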

Additional observations from a re-analysis of the deposited data

Results flagged for a closer look

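Pcdhga9 had Ahnak KO values on opposite sides of WT in the 2 tissues. In kidney both Ahnak KO libraries (8.96 and 6.95 CPM) were above both WT libraries (5.59 and 5.68), a difference that did not pass the test in edgeR (log2 fold change 0.50, SE 0.23, adjusted p = 0.9999), while the Ahnak KO ureter was at 1.08 CPM and the WT ureter at 15.3, a log2 ratio of CPM + 0.5 of −3.32. The pattern was not particular to Pcdhga9. Other members with kidney genotypes apart also had a ureter ratio of the other sign, such as Pcdhga4 (0.80 in kidney, −0.84 in ureter) and Pcdhga2 (−0.47 and 0.94). Some kept their sign, such as Pcdhb7 (0.69 and 0.46). With 1 ureter library a genotype, the difference between the tissues was not tested.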

How the results depend on the processing

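The limits are 2 libraries a kidney genotype, 1 a ureter genotype, exons that isoforms share, and a division of reads by a quantifier that is not known for certain. In kidney the count of members called was 0 in the report, 1 (Pcdhga8) with DESeq2, and 0 to 1 when 1 library was left out. In tissue it was 5, against 9 with DESeq2, 9 with limma on log2(FPKM + 1), and 2 to 9 when 1 library was left out. It was 3 (Pcdhga12, Pcdhga3 and Pcdhgb4) over the 4 libraries whose table headers share a trailing number across tissues, paired within genotype, an alternative added after seeing the data. The count past 2-fold in ureter was 9, and 15 with FPKM + 0.1. The kidney log2 fold change of Pcdhgc3 ran from −0.11 to 0.39 over the left-out libraries and turned sign without Ahnak KO kidney 1. The kidney alpha sum ratio was −0.13 to 0.53 over the left-out libraries. The tissue ratios of the sums were, from summed FPKM, 0.32 for alpha, −0.40 for beta and 0.10 for gamma, and by library size alone 0.34, −0.40 and 0.11. In ureter they were, from summed FPKM, −0.076 for beta and −0.17 for gamma, and by library size alone −0.083 and −0.15. The cause of these moves was not tested, apart from the scaling shift given in the report. Equal replicate numbers in kidney deviated in opposite directions (r = −0.27 over 16385 genes). With 2 libraries a genotype this is 1 correlation, which cannot show whether the numbers mark pairs. With the replicate number as a block 0 members were called (adjusted p of Pcdhga8 0.890). With the numbers crossed, an alternative added after seeing the data, 0 were called as well. Of 238 values recomputed, 188 stayed on their side of the threshold or within their spread (counts within 1.5 times). A further 23 moved further, 23 lost and 3 gained a call, and 1, the kidney fold change of Pcdhgc3, turned sign. Cluster sums were sorted only by how far they moved. Those that turned sign (alpha and gamma in kidney, beta and gamma in ureter) are therefore among the values that stayed or moved further.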
